A study of Mus musculus with 12 samples.

Results

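Matricellular proteins are secreted into the extracellular matrix but do not build its fibres; they bind cell surface receptors, growth factors and matrix proteins and alter how cells attach, spread and respond to signals. The genes described here are 10 of these: the thrombospondins Thbs1, Thbs2, Thbs3 and Thbs4, the tenascins Tnc and Tnxb, the periostin gene Postn, the osteopontin gene Spp1, and the SPARC family members Sparc and Sparcl1. They were taken by name, but with earlier results of these data known. All 10 had a probe on the array, with 14 probes among them out of 39429. Every one passed the filter on dim probes, so all 10 stand among the 19507 genes and transcripts tested.

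Fibroblasts are a main source of these proteins. Many of them are made in large amounts in the embryo, in healing wounds and in tissues under load, and little in resting adult tissue. Thbs1 and Thbs2 form one subgroup, known for binding the receptors CD36 and CD47 and for restraining blood vessel growth. Thbs3, Thbs4 and Comp form the other subgroup, whose members are prominent in cartilage, tendon, bone and muscle.

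The RNA came from mouse embryonic fibroblasts (MEFs), mixed primary cells grown out of E12.5 embryos. There were 4 groups with 3 arrays each: Itpr2 knockout (KO) cells at late passage, wild-type (WT) cells at late passage, KO cells at early passage and WT cells at early passage. Late cells had been cultured for 5 passages and early cells for 3, and the design text speaks of MEFs from 3 independent animals of each genotype. Itpr2 encodes an inositol trisphosphate receptor, which lets calcium out of the endoplasmic reticulum, and the series asks how its loss alters fibroblasts as they are passaged; the sources used here give neither the strain nor how the allele was made. The labels do not say whether the late cultures continued the early ones.

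The quantity reported is the log2 level, which is the log2 intensity of a probe minus the log2 of its array's 75th percentile; a level of 0 means a signal equal to that percentile. Each array had its own percentile, between 568.9 and 902.5 intensity units, and between 59.2% and 67.5% of probes passed the scanner software's own test for a signal well above background. Replicates of a group correlated at 0.985 to 0.997, and 0 spots were saturated. All 10 fibroblast markers, from Col1a1 and Pdgfra to Vim, were above background on every array. The single Itpr2 probe kept gave levels of 1.72 to 1.83 in KO late arrays, 1.53 to 1.74 in WT late arrays, 1.12 to 1.58 in KO early arrays and 0.66 to 1.23 in WT early arrays; the sources used here do not place it relative to the deletion, so it does not check the genotype. Xist, transcribed from the inactive X chromosome of female cells, was above background on KO late replicates 1 and 2, WT late replicate 1 and WT early replicate 1, and on 0 of the KO early arrays. KO late replicate 1 was also above background for the Y-linked gene Ddx3y, so that array carried transcripts of both sexes. KO late replicates 1 and 2 thus carried a female transcript that the KO early arrays of the same number lacked. Ddx3y was above background on every KO early array (0.76 to 0.82) and not on KO late replicate 2 (-7.56). Passage in KO cells therefore cannot be told apart from a difference in animals and their sex. For the 10 genes and their listed relatives and receptors, calls that use these KO late arrays are also given without them. The same was done for some of the marker counts. That fit keeps a lone KO late array. Its counts of unadjusted p under 0.05 in limma have no share of all genes beside them, so they do not show a signal kept. Fewer cells of a type and less RNA per cell cannot be told apart in these bulk samples.

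**Figure D1:**
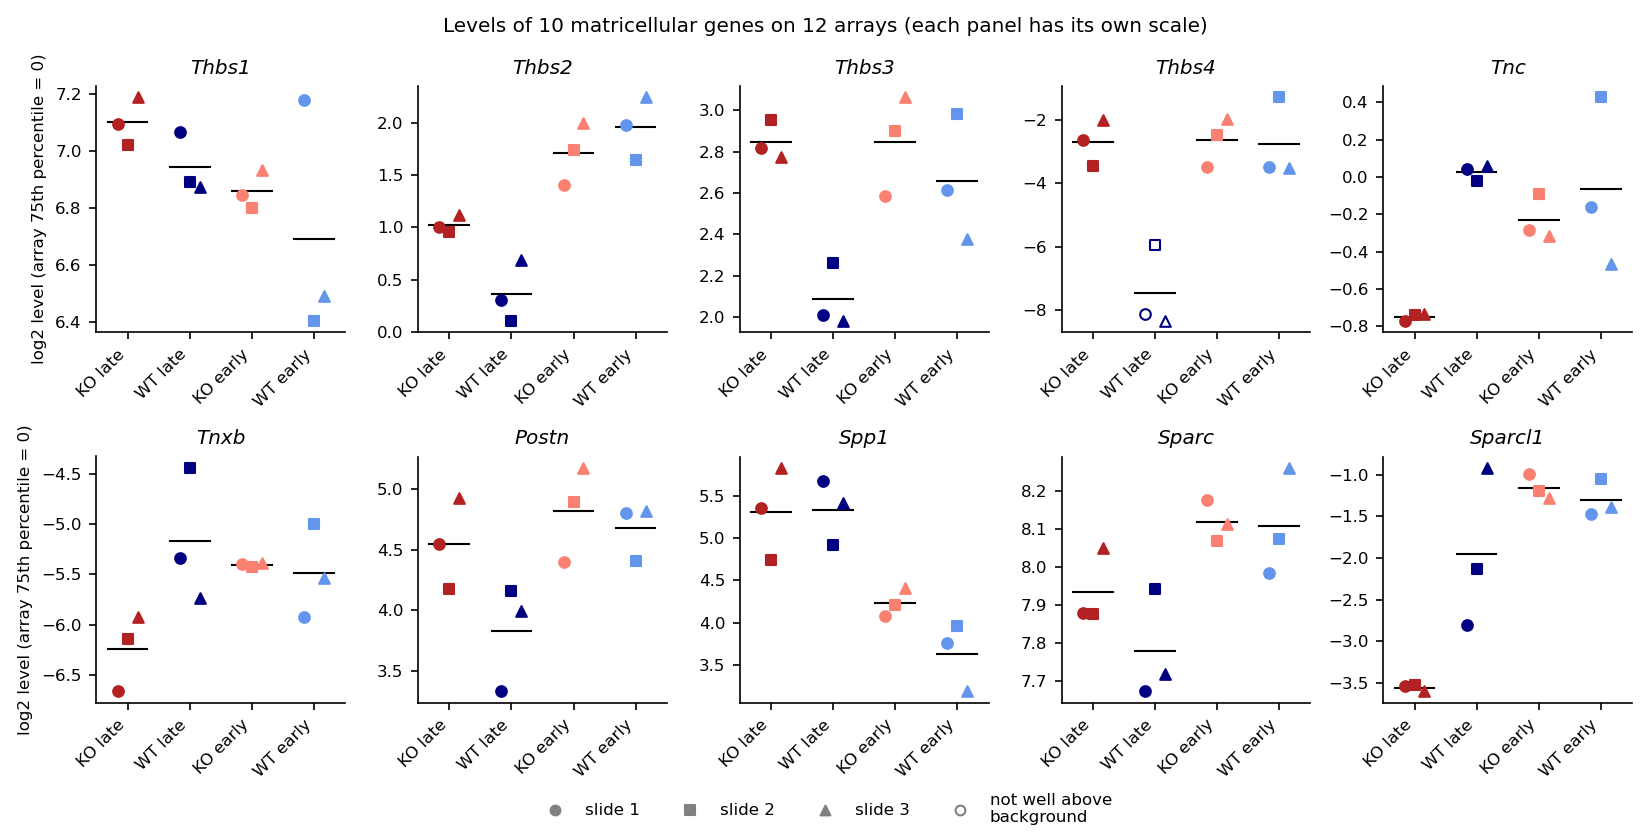
The log2 level of each of the 10 genes (vertical axis, 0 at the array's 75th percentile, a scale of its own in each panel) is plotted for each array in 4 groups; symbols give the slide, black lines the group means, and open symbols arrays where the probe was not well above background. Thbs4 was open on all 3 WT late arrays, Sparcl1 was lowest on the 3 KO late arrays, and Spp1 was higher on all 6 late arrays than on the 6 early ones.

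A difference was called when its adjusted p was under 0.05 in a limma fit of the 4 group means over all 12 arrays, with Benjamini-Hochberg adjustment over all 19507 genes. Errors are SE of that fit, and every difference rests on 3 arrays a group. At late passage, 4 of the 10 genes were called between KO and WT cells, against 7.83% of all genes tested. Thbs4 and Thbs3 were higher in KO (3.46% of all genes were called higher), and Tnc and Sparcl1 were lower (4.37% called lower). At early passage limma called 0 of the 10, against 0.0359% of all genes, and 0 of the 10 had an unadjusted p under 0.05. The median of the 10 log2 differences was 0.16 at late passage, beside -0.01 over all genes. The median absolute difference was 0.74, beside 0.18 over all genes.

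With passage in culture, 3 of the 10 were called in KO cells (18.9% of all genes) and 3 in WT cells (10.6%). Spp1 rose and Thbs2 fell in both genotypes, while Sparcl1 was called lower in KO cells and Thbs4 in WT cells. In KO cells 9.95% of all genes were called higher and 9.00% lower, and in WT cells 6.22% were called higher and 4.37% lower. The test of the difference itself, the passage response of KO minus that of WT, called 0 of the 10 genes in limma and 0.0871% of all genes. Its unadjusted p was under 0.05 for 6 of the 10 and for 2713 of all genes. No gene of the set is therefore shown to respond differently to passage in KO and WT cells.

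**Figure D2:**
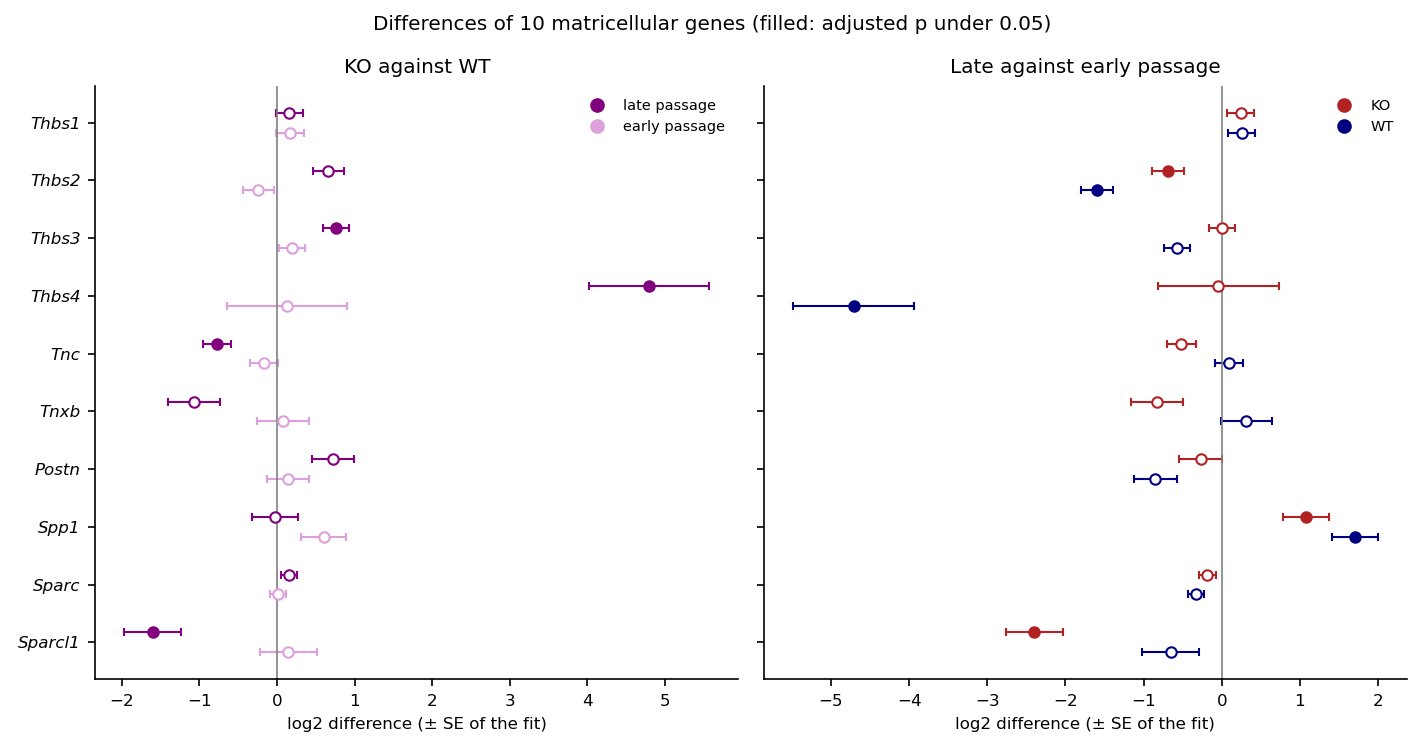
Log2 differences of the 10 genes are plotted for KO against WT (left panel, late and early passage) and for late against early passage (right panel, KO and WT), with bars for the SE of the fit and filled points for an adjusted p under 0.05. Thbs4 lies at 4.79 for KO against WT at late passage and at -4.71 for late against early passage in WT cells, far from its values in the other comparisons.

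Groups that did not overlap were more frequent than calls. At late passage the 3 KO arrays lay wholly above or wholly below the 3 WT arrays for 7 of the 10 genes, beside 39.3% of all genes. At early passage this held for 1 of the 10, beside 9.54%. Late and early arrays did not overlap for 7 genes in KO cells, beside 51.9% of all genes, and for 6 genes in WT cells, beside 27.7%.

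Thbs4 encodes a thrombospondin of tendon, muscle and heart matrix. Its probe gave log2 levels of -2.61, -3.44 and -1.98 on the KO late arrays, against -8.12, -5.96 and -8.35 on the WT late arrays. The early arrays read -3.49, -2.46 and -1.95 in KO cells and -3.49, -1.27 and -3.53 in WT cells. The transcript was above background on every array of 3 groups and on 0 of the 3 WT late arrays, which stood apart from all others. For fold sizes each WT late array was given a floor, the weakest probe signal still counted as above background there. The Thbs4 value was used where it was larger. Against that floor the transcript was 14.9-fold higher in KO late than in WT late cells (adjusted p = 0.0087 in limma). In WT cells it was 14.1-fold lower at late than at early passage (adjusted p = 0.0069 in limma). Both adjusted p come from values without the floor. KO cells showed -0.05 ± 0.77 (SE) between late and early passage, with an adjusted p of 0.97 in limma.

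The size of the Thbs4 differences rests on signals at background. With the normexp background correction, which adds an offset to every spot, KO against WT at late passage came to 1.29 log2 units (adjusted p = 0.044 in limma) and late against early passage in WT cells to -1.39 (adjusted p = 0.030). The passage response differed by 4.67 ± 1.1 between KO and WT, yet its adjusted p in limma was 0.14 and it was not called.

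Thbs3, a relative of Thbs4 with roles in the growing skeleton, had 2 probes. The brighter one read 2.82, 2.95 and 2.77 on the KO late arrays and 2.01, 2.26 and 1.98 on the WT late arrays. The early arrays read 2.58, 2.90 and 3.06 in KO cells and 2.62, 2.98 and 2.38 in WT cells. The WT late arrays were again the lowest, below all 9 others. KO late cells were 1.70-fold higher than WT late cells (0.76 ± 0.17 log2 units, adjusted p = 0.025 in limma), with differences of 0.80, 0.69 and 0.79 within the 3 slides. The other Thbs3 probe gave 0.77 ± 0.15 for the same comparison, with an adjusted p of 0.019 in a limma fit over all probes.

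In WT cells Thbs3 was 0.57 ± 0.17 log2 units lower at late than at early passage, with an adjusted p of 0.056 in limma. With the replicate number as a block, which also stands for the slide and which pairs the WT arrays, this became 0.041. It was also under 0.05 with normexp (0.042), in the authors' deposited value table (0.047) and without WT early replicate 3 (0.035), and above it under the other alternatives, up to 0.17 with only the groups compared. KO cells gave -0.00096 ± 0.17 for the same step. The drop in WT cells lay between 0.39 and 0.72 log2 units within slides, so it had 1 direction on all 3.

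Thbs2, whose loss in mice is known to leave collagen fibres abnormal, was called lower with passage in both genotypes. Its levels were 1.00, 0.95 and 1.12 in KO late arrays and 0.30, 0.10 and 0.69 in WT late arrays. They were 1.40, 1.74 and 2.00 in KO early arrays and 1.98, 1.65 and 2.25 in WT early arrays. Late arrays lay below early arrays in both genotypes, and WT late arrays lay below KO late arrays. The fall with passage was 1.61-fold in KO cells (-0.69 ± 0.20, adjusted p = 0.038) and 3.02-fold in WT cells (-1.60 ± 0.20, adjusted p = 0.0022 in limma). The difference between these falls, 0.91 ± 0.28 log2 units, was not called (adjusted p = 0.23 in limma). KO against WT at late passage gave 0.66 ± 0.20 with an adjusted p of 0.070, and was not called although the groups did not overlap.

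Thbs1, which encodes an activator of latent TGF-beta, was not called in any of the 5 comparisons, with adjusted p in limma from 0.36 to 0.99. Its levels ran from 7.02 to 7.19 in KO late, 6.88 to 7.07 in WT late, 6.80 to 6.93 in KO early and 6.40 to 7.18 in WT early arrays. WT early replicate 1, at 7.18, stood above the other WT early arrays at 6.40 and 6.49. The WT early group was therefore the most spread of the 4. Without WT early replicate 1, late against early passage in WT cells came to 0.50 log2 units with an adjusted p of 0.016, so this array decides whether that difference is called.

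The order of the group means differed within the family. For Thbs2, Thbs3 and Thbs4 the WT late group had the lowest mean and did not overlap with the next group. For Thbs3 and Thbs4 the 3 other groups overlapped with their neighbours in the order. For Thbs1 the KO late group had the highest mean, and each group overlapped with the next.

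The sequences before the start sites are shown for the 3 thrombospondins that were lowest in WT late cells, and for Spp1, which moved the other way with passage. They come from the RefSeq promoter table on GRCm38.p6 and give the 250 bases before the annotated start, 5′ to 3′ on the strand of the gene. Capitals mark matches on either strand to 6 short motifs, namely the TATA box TATAAA, the CCAAT box, which is spelled by its name, the GC box GGGCGG, the AP-1 motif TGANTCA, the RUNX motif ACCACA and the TEAD motif GGAATG. The Spp1 window lies before the more upstream of its 2 annotated starts.

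Thbs2, chr17:14694263-14694512 (minus strand): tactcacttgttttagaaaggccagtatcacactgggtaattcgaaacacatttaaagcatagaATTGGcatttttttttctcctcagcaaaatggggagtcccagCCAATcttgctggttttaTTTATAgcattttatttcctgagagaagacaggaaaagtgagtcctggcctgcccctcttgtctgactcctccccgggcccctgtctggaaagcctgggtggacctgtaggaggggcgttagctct
Thbs3, chr3:89214930-89215179 (plus strand): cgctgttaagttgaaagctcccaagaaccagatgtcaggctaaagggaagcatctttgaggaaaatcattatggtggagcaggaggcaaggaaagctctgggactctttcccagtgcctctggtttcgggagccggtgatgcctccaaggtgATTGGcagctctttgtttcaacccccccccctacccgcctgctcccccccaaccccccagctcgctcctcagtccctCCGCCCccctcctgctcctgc
Thbs4, chr13:92794819-92795068 (minus strand): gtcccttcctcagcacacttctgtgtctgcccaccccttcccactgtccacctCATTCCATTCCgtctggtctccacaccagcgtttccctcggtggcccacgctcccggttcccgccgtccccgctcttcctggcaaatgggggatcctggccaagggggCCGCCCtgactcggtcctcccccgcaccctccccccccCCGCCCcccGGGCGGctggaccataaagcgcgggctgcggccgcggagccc
Spp1, chr5:104434861-104435110 (plus strand): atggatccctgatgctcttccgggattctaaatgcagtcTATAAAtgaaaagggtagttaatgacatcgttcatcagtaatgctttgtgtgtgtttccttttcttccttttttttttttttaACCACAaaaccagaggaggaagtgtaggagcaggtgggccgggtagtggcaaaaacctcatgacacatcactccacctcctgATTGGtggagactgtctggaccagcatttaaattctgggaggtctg

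Among 32851 windows of the same length in the table, 12.4% held TATAAA, 33.8% the CCAAT box, 32.7% the GC box, 6.75% TGANTCA, 14.0% ACCACA and 12.6% GGAATG. No motif occurred in all 3 thrombospondin windows. Thbs4 held GGGCGG at 3 places and 2 copies of GGAATG that overlap by 1 base, both on the opposite strand. Thbs3 held 1 CCAAT box and 1 GC box, and Thbs2 held 2 CCAAT boxes and 1 TATAAA on the opposite strand. Spp1 held TATAAA, the CCAAT box and ACCACA once each. A match only describes these letters, and promoter activity was not measured. Windows were found for 8 of the 10 genes.

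Tnc encodes tenascin C, a large glycoprotein of embryonic and wound matrix that weakens fibroblast attachment to fibronectin. Its brighter probe read -0.77, -0.74 and -0.73 on the KO late arrays and 0.04, -0.02 and 0.06 on the WT late arrays. The early arrays read -0.29, -0.09 and -0.32 in KO cells and -0.16, 0.43 and -0.47 in WT cells. The KO late arrays were the lowest and lay close together, while the WT early arrays were spread widely. KO late cells were 1.71-fold lower than WT late cells (-0.78 ± 0.18, adjusted p = 0.031 in limma), with -0.81, -0.72 and -0.80 within slides.

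The dimmer Tnc probe gave -0.62 ± 0.16 for KO against WT at late passage, with an adjusted p of 0.047 in a limma fit over all probes. The probes had opposite signs for passage in KO cells, where the brighter one gave -0.52 ± 0.18 and the dimmer one 0.27 ± 0.16, and neither was called. In the other comparisons their signs were the same, and neither probe was called.

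Tnxb encodes tenascin X, whose loss is known in humans to cause a form of Ehlers-Danlos syndrome. Its single probe was above background on every array but dim, with intensities of 7.43 to 33.4 units. Levels were -6.66, -6.14 and -5.92 in KO late arrays and -5.33, -4.44 and -5.74 in WT late arrays, which did not overlap. The difference of -1.07 ± 0.33 was not called (adjusted p = 0.075 in limma), and with normexp it was -0.21.

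Postn, which encodes a protein that binds collagen and promotes its cross-linking, read 4.18 to 4.93 in KO late, 3.33 to 4.16 in WT late, 4.40 to 5.18 in KO early and 4.41 to 4.82 in WT early arrays. The WT late group was lowest and overlapped with no neighbour in the order. Neither KO against WT at late passage (0.72 ± 0.27, adjusted p = 0.13) nor late against early passage in WT cells (-0.85 ± 0.27, adjusted p = 0.075 in limma) was called. The late difference between genotypes was 1.22, 0.02 and 0.94 within slides, so slide 2 hardly showed it.

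Spp1 encodes osteopontin, a phosphorylated glycoprotein that binds integrins and CD44 and is made by bone cells and macrophages as well as fibroblasts. It read 5.35, 4.74 and 5.83 on the KO late arrays and 5.68, 4.92 and 5.41 on the WT late arrays. The early arrays read 4.08, 4.21 and 4.41 in KO cells and 3.76, 3.96 and 3.19 in WT cells. All late arrays lay above all early arrays, and the late groups overlapped, with a difference of -0.03 ± 0.29 between KO and WT (adjusted p = 0.97 in limma). Spp1 rose 2.10-fold with passage in KO cells (1.07 ± 0.29, adjusted p = 0.030) and 3.25-fold in WT cells (1.70 ± 0.29, adjusted p = 0.0082 in limma). Within slides the rises were 1.27, 0.53 and 1.42 in KO cells and 1.92, 0.96 and 2.22 in WT cells, with slide 2 the smallest in both. KO early arrays lay above WT early arrays without overlap, by 0.60 ± 0.29 log2 units, but this was not called (adjusted p = 0.74 in limma).

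Macrophage markers were measured beside Spp1. All 15 listed, among them Csf1r, Adgre1 and Cd68, were above background on every array. Their summed level, in multiples of the array's 75th percentile, was 41.3 to 77.9 in KO late, 84.2 to 135.5 in WT late, 52.8 to 70.9 in KO early and 55.9 to 107.7 in WT early arrays. With passage in WT cells 13 of the 15 had a positive difference, with a median of 0.88 log2 units. Of them 1 was called higher, beside 6.22% of all genes. That count rested on single arrays, since 10 were called when WT early replicate 1 was left out, and 0 when any of replicates 2 and 3 of WT early or WT late was. The share of all genes called in those fits is not given, so these counts do not single out macrophage markers. In KO cells the median was -0.11 and limma called 0. Of 4 bone markers tested, 2 were called lower with passage in each genotype, beside 9.00% (KO) and 4.37% (WT) of all genes. Without single arrays the bone count was 1 to 2 in WT cells (1 without any WT early array or WT late replicate 1 or 2) and 1 to 3 in KO cells (1 without KO early replicate 1 or 2 or any KO late array). Without the KO late arrays that carry Xist, limma called 0 of these 4 in KO cells, with an unadjusted p under 0.05 for 2. The summed bone marker level was 0.183 to 0.213 in KO late, 0.132 to 0.192 in WT late, 0.378 to 0.444 in KO early and 0.284 to 0.470 in WT early arrays. The part of either cell type in the Spp1 signal was not tested.

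Sparc encodes osteonectin, a collagen-binding protein that fibroblasts secrete abundantly. Its brightest probe read 7.88 to 8.05 in KO late, 7.67 to 7.94 in WT late, 8.07 to 8.18 in KO early and 7.98 to 8.26 in WT early arrays. Unscaled, the same probe stayed between 164503 and 191232 intensity units on all 12 arrays, while their 75th percentile ran from 568.9 to 902.5. Its scaled level thus moved more with that percentile than with its own signal. Uncalled differences on this probe need not mean an unchanged transcript. None of the 5 comparisons called Sparc on any of its 3 probes. In KO cells late against early passage gave -0.18 ± 0.10 and -0.06 ± 0.08 on the brighter probes and 0.38 ± 0.13 on the dimmest, so the probes did not agree in sign.

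Sparcl1, also named hevin, encodes a relative of SPARC that counters cell adhesion. It read -3.54, -3.52 and -3.60 on the KO late arrays and -2.80, -2.14 and -0.92 on the WT late arrays. The early arrays read -0.99, -1.20 and -1.28 in KO cells and -1.47, -1.05 and -1.39 in WT cells. KO late arrays were tightly grouped below all others, whereas the WT late arrays ranged from below the early arrays to above them. KO late cells were 3.03-fold lower than WT late cells (-1.60 ± 0.36, adjusted p = 0.028 in limma), with -0.74, -1.38 and -2.68 within slides. With passage it fell 5.27-fold in KO cells (-2.40 ± 0.36, adjusted p = 0.0027 in limma), with -2.55, -2.32 and -2.32 within slides. With normexp that fall was 1.68 log2 units, with an adjusted p of 0.0013.

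In WT cells Sparcl1 gave -0.65 ± 0.36 with passage (adjusted p = 0.27 in limma). Without WT late replicate 3, the array at -0.92, this became -1.17 with an adjusted p of 0.011, so that array decides the call. The difference between the passage responses of KO and WT, -1.75 ± 0.51, was not called (adjusted p = 0.21 in limma).

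Which arrays entered the fit changed the calls that use KO late cells. Without the KO late arrays that carry Xist, a lone KO late array remained, assumed to vary like the other groups, and 0 of the 10 genes were called either between genotypes at late passage (1 of all genes called) or with passage in KO cells (165 of all genes). In that limma fit the unadjusted p was under 0.05 for 6 and 2 of the 10 genes in these comparisons. Their differences kept their direction, at 5.49 for Thbs4, 0.69 for Thbs3, -0.76 for Tnc and -1.65 for Sparcl1 between genotypes, and -2.44 for Sparcl1, 1.60 for Spp1 and -0.59 for Thbs2 with passage. Leaving out any single KO late array left 1 call between genotypes, that of Thbs4, and any single WT late array left 2. Thbs3 lost its call without any of the KO late arrays or without WT late replicates 1 or 3, Tnc without any of the 6, and Sparcl1 without any of the KO late arrays or WT late replicate 2. With passage in KO cells 1 call was left without KO late replicate 1 or 3 or KO early replicate 2, and 2 without the other arrays. The 3 calls with passage in WT cells stayed without any single WT array.

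Markers of fibroblasts and of other cell types differed beside the genes described. Of all genes, 3.46% were called higher and 4.37% lower in KO late than in WT late cells. With passage, 9.95% were called higher and 9.00% lower in KO cells, and 6.22% and 4.37% in WT cells. These shares, of the fit of all 12 arrays, stand beside the marker counts that follow. Fits without single arrays called other shares, given at the end for some comparisons. Of 10 fibroblast markers, Col3a1 (0.96 log2 units) was called higher and Thy1 (-1.18) lower in KO late than in WT late cells. With passage 0 were called higher. Thy1 (-1.75) was called lower in KO cells, and Col1a2 (-0.45) and Fbn1 (-0.91) in WT cells. Of 9 cartilage markers tested, 5 were called higher in KO late than in WT late cells, including Sox9 at 0.55 against -0.85, Hapln1 at -1.66 against -4.86 and Epyc at -3.72 against -7.89 (group means of log2 level). Epyc, like Thbs4, was above background on 0 of the WT late arrays. The summed cartilage level nonetheless overlapped, at 25.8 to 41.2 in KO late, 25.5 to 30.3 in WT late, 27.7 to 37.2 in KO early and 19.5 to 72.7 in WT early arrays. Of 4 tendon markers tested, Scx and Mkx were called higher in KO late cells, and the summed tendon level was 18.5 to 20.4 in KO late, 9.58 to 15.5 in WT late, 12.2 to 14.3 in KO early and 11.7 to 17.3 in WT early arrays. Matn1 and Kera, the remaining cartilage and tendon markers, did not pass the filter on dim probes. With passage in WT cells, where Thbs4 was called lower, 2 cartilage markers and the tendon markers Tnmd and Fmod were also called lower. Scx moved the other way there (0.39 log2 units) and was not called. In KO cells 3 cartilage markers were called higher, while Scx was called higher (0.93) and Tnmd lower (-0.91). Without single arrays the tendon count in KO cells was 1 higher and 0 to 1 lower. The late difference between genotypes held for 4 or 5 cartilage markers without any single array, and for 1 tendon marker without WT early replicate 2, KO early replicate 2, WT late replicate 2 or 3 or any KO late array. The tendon count in WT cells was 0 without WT early replicate 3 or WT late replicate 2 or 3. Without the KO late arrays that carry Xist, limma called 0 of the cartilage and 0 of the tendon markers between KO and WT at late passage, with an unadjusted p under 0.05 for 6 and 2 of them. The part of these cell types in the levels of Thbs3 and Thbs4 was not tested.

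All 3 skeletal muscle markers tested, Des, Actc1 and Tnnt3, were called lower with passage in WT cells, as Thbs4 was, also without any single array. In KO cells, where Thbs4 was not called, Des and Actc1 were called lower, and without the KO late arrays that carry Xist 1 muscle marker was. The summed level of the 6 listed muscle markers was 0.1009 to 0.1503 in KO late, 0.1013 to 0.1499 in WT late, 0.314 to 0.408 in KO early and 0.332 to 0.645 in WT early arrays. The sum separated late from early arrays and overlapped between genotypes, but the tested markers did not move together. KO against WT at late passage gave -2.74 log2 units for Des, -1.43 for Actc1 and 0.72 for Tnnt3. Myod1 and Myog, which define muscle precursors, were above background on 0 arrays. Between KO and WT at late passage 1 muscle marker, Des, was called lower, and limma called 0 of the 3 once both Xist-carrying KO late arrays were left out, with an unadjusted p under 0.05 for 2.

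Of 5 neural and glial markers tested, Stmn2 and Fabp7 were called lower in the same comparisons as Sparcl1. Stmn2 averaged -3.07 in KO late, -0.52 in WT late, -0.26 in KO early and -0.12 in WT early arrays. Fabp7 averaged -4.90 in KO late, -2.65 in WT late, -2.12 in KO early and -2.39 in WT early arrays. Both were above background on every array, and neither was called with passage in WT cells or for the passage response. Between genotypes at late passage limma called 0 neural markers without any KO late array or WT late replicate 3, and 1 without WT late replicate 1. With both Xist-carrying KO late arrays left out it called 0 in either comparison, with an unadjusted p under 0.05 for 2 between genotypes and 3 with passage in KO cells. The summed level of the 6 listed was 8.12 to 10.5 in KO late, 11.03 to 12.3 in WT late, 7.65 to 7.97 in KO early and 8.32 to 9.00 in WT early arrays. The part of muscle and neural cells in the levels of Thbs4 and Sparcl1 was not tested. Of 3 epithelial markers tested, Krt18 was called lower with passage in KO cells (-2.67 log2 units, adjusted p = 0.013 in limma), beside 9.00% of all genes. Krt14 (0.54) and Cldn4 (0.14) moved the other way and were not called. Without single arrays the epithelial count was 0 to 1 lower.

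**Figure D3:**
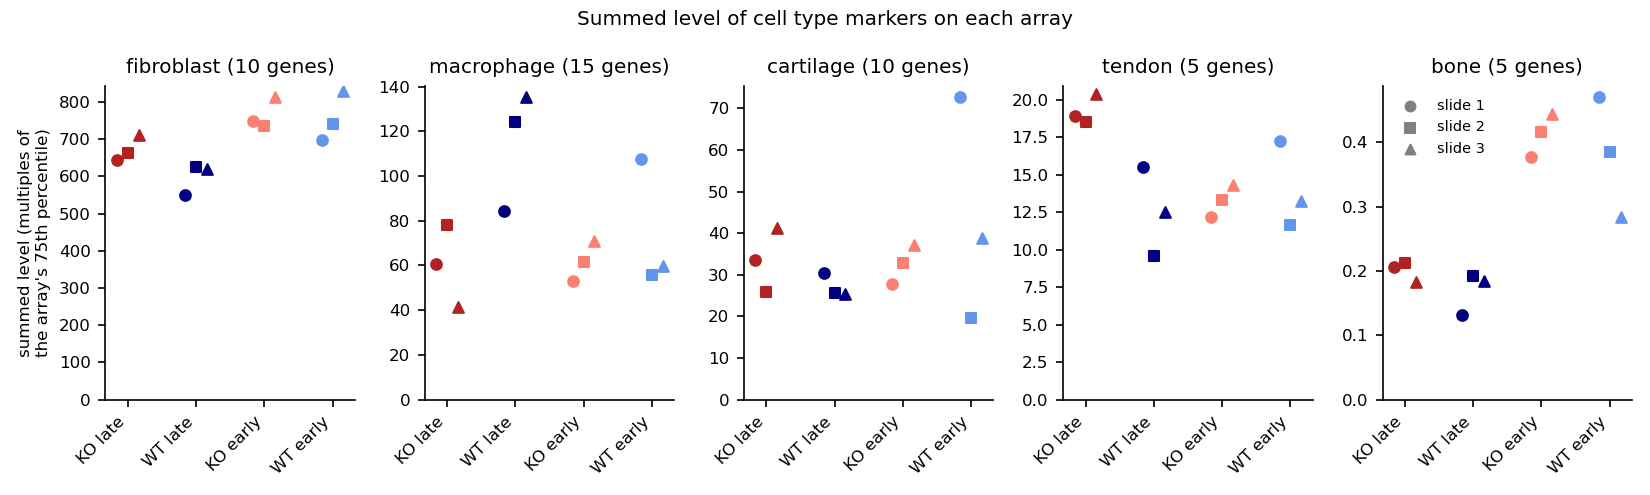
The summed level of each marker list (vertical axis, multiples of the array's 75th percentile) is plotted by array in 4 groups, with the number of listed genes in each title and symbols for the slide. Tendon markers sum to 18.5 to 20.4 on the KO late arrays, above every other array, and macrophage markers to 41.3 to 77.9 there, below the WT late arrays at 84.2 to 135.5.

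Receptors and relatives of these proteins were read from a list of 39 genes, of which 31 were tested. Between KO and WT at late passage 1 was called higher and 3 lower, beside 3.46% and 4.37% of all genes. The 3 lower ones are cell surface receptors, and the higher one is Tgfbi, which encodes a secreted integrin ligand related to periostin. Cd36, a thrombospondin receptor and fatty acid transporter, read -4.44, -4.37 and -5.30 in KO late arrays against -2.48, -1.96 and -1.64 in WT late arrays (-2.68 ± 0.37, adjusted p = 0.0045 in limma). Cd44, a receptor for hyaluronan and osteopontin, differed by -1.46 ± 0.31 (adjusted p = 0.022). Itga4, an integrin subunit that binds osteopontin and fibronectin, differed by -1.98 ± 0.20 (adjusted p = 0.0017), and Tgfbi by 1.14 ± 0.29 (adjusted p = 0.042 in limma). Macrophages also express Cd36, Cd44 and Itga4, and their markers were lower in the same comparison, as given above for Spp1, with a median of -1.07 log2 units and 2 of 15 called lower; their part in these differences was not tested. Leaving out WT early replicate 1 gave 6 macrophage calls and leaving out WT early replicate 3 gave 4, with 0 without KO early replicate 2, WT late replicates 2 or 3 or KO late replicates 1 or 3. With both Xist-carrying KO late arrays left out, limma called 0 of the 15 macrophage markers, with an unadjusted p under 0.05 for 13. Of the related genes, 2 were called lower and 0 higher without any single KO late array or WT late replicate 3, and 3 lower and 0 higher without KO early replicate 2. Without the KO late arrays that carry Xist limma called 0 of the 31 at late passage, with an unadjusted p under 0.05 for 7, and the differences were -3.28 for Cd36, -1.35 for Cd44, -2.40 for Itga4 and 1.04 for Tgfbi. At early passage limma called 0 of the 31, and 0 had an unadjusted p under 0.05.

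**Figure D4:**
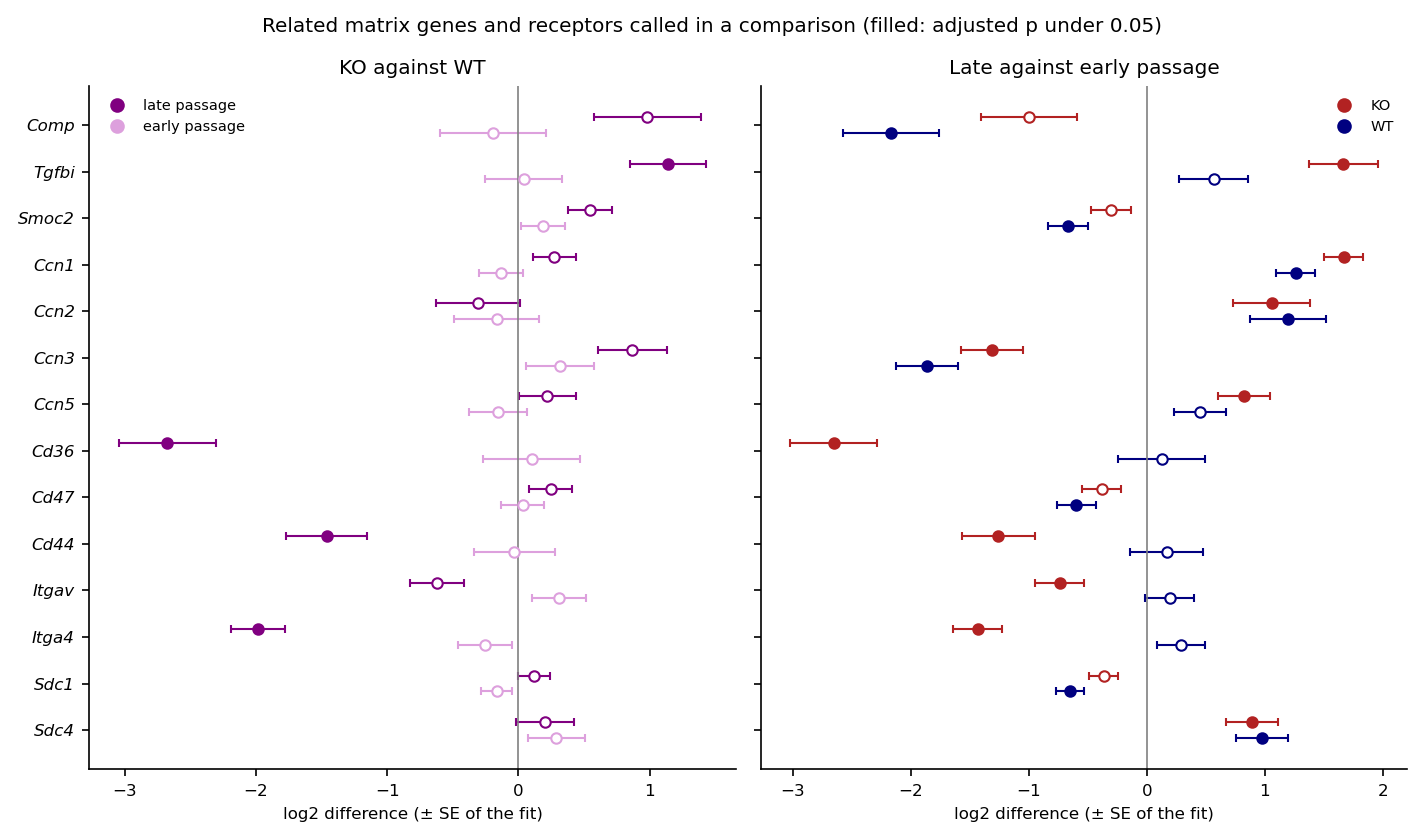
Log2 differences of the 14 related genes called in at least 1 comparison are plotted for KO against WT (left) and for late against early passage (right), with bars for the SE of the fit and filled points for an adjusted p under 0.05. Cd36, Cd44 and Itga4 are low for KO against WT at late passage, and Ccn1, Ccn2 and Sdc4 are high with passage in both genotypes.

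With passage, 5 of the 31 were called higher and 5 lower in KO cells, beside 9.95% and 9.00% of all genes. In WT cells 3 were called higher and 5 lower, beside 6.22% and 4.37%. These counts fell without single arrays. In KO cells leaving out KO early replicate 1 or 2, or replicate 1 of KO late, gave 2 higher and 3 lower. There 3 were called in each direction once KO late replicate 2 was left out, and 2 higher with 5 lower once KO late replicate 3 was. In WT cells 1 was called higher without WT early replicate 3 or WT late replicate 1 or 2, and 3 were called lower without WT early replicate 2, WT late replicate 2, KO early replicate 2 or KO late replicate 1. Ccn1 and Ccn2 encode the matricellular proteins CYR61 and CTGF, which fibroblasts induce on stretch and growth factor signals. Ccn1 rose by 1.67 ± 0.16 in KO cells (adjusted p = 0.00041) and by 1.26 ± 0.16 in WT cells (adjusted p = 0.0026 in limma). Ccn2 rose by 1.06 ± 0.32 in KO cells and 1.20 ± 0.32 in WT cells. Sdc4, a heparan sulfate proteoglycan at focal adhesions, rose by 0.89 ± 0.22 in KO cells and 0.98 ± 0.22 in WT cells.

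Comp, cartilage oligomeric matrix protein and the fifth thrombospondin, read 0.10, -0.48 and 0.55 in KO late arrays and -0.29, -1.32 and -1.16 in WT late arrays. It read 0.62, 1.12 and 1.42 in KO early arrays and 1.96, 1.25 and 0.53 in WT early arrays. Its WT late group had the lowest mean, as for Thbs2, Thbs3 and Thbs4, though 1 of them lay above the lowest KO late array. Late against early passage gave -0.996 ± 0.41 in KO cells (adjusted p = 0.12) and -2.17 ± 0.41 in WT cells (adjusted p = 0.011 in limma), and the fall was called in WT cells. Ccn3, which encodes the matricellular protein NOV, fell by 1.32 ± 0.26 in KO cells and by 1.87 ± 0.26 in WT cells.

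Other genes were called in 1 genotype and not in the other, and for these the difference between the passage responses was not called. In KO cells Tgfbi rose by 1.66 ± 0.29, while Cd36 fell by 2.65 ± 0.37, Itga4 fell by 1.44 ± 0.20 and Cd44 fell by 1.26 ± 0.31. In WT cells Smoc2, a SPARC relative, fell by 0.67 ± 0.17 (adjusted p = 0.035 in limma, 0.053 with the replicate block), and Sdc1, a cell surface proteoglycan, fell by 0.65 ± 0.12. The passage response of KO against WT called 0 of the 31 genes in limma, with an unadjusted p under 0.05 for 6. Itga4 came nearest of those named here, at -1.72 ± 0.29 with an adjusted p of 0.078 in limma, followed by Cd36 at -2.78 ± 0.52 and 0.093. Without KO early replicate 3 limma called 4 of the 31 for this response (1.18% of all genes), namely Cd36 at -2.98, Cd44 at -1.82, Itga4 at -1.62 and Itgav, another integrin subunit, at -1.21, with adjusted p from 0.030 to 0.045. Without any other single array it called 0. Without the KO late arrays that carry Xist, the calls with passage in KO cells numbered 3, namely Ccn1 at 1.72 (adjusted p = 0.034), Cd36 at -3.25 (adjusted p = 0.037) and Itga4 at -1.85 (adjusted p = 0.026 in limma).

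Transcripts with the most similar profile over the 12 arrays were listed for each gene called at least once, with Pearson's r as the measure of likeness and no test, since the arrays fall into 4 groups. For Thbs4 these were Tmem26, Fbxo27 and Car6, with r of 0.962, 0.961 and 0.959. For Thbs3 they were Gprasp1, Gpsm2 and Lum, with 0.991, 0.978 and 0.976, where Lum encodes lumican, a collagen-binding proteoglycan. For Thbs2 they were Klhdc10, Ank2 and Ybey at 0.974 to 0.968. Sparcl1 was nearest to Cdkn2b, 1700007K13Rik and Nnmt, at 0.986 to 0.979. Spp1 was nearest to Zfp52, Ptbp2 and Akap7 at 0.962 to 0.948, and Tnc had the least close neighbours, Fbxo25, Kif1b and Ubap2 at 0.912 to 0.892.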

How the data were processed

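Total RNA of 12 mouse embryonic fibroblast cultures was hybridised with 1 dye (Cy3), per the labels' protocols. The deposited scanner files hold the intensity of each spot after background subtraction and detrending by Agilent Feature Extraction, version 11.5.1.1 per the file headers and 10.7.3.1 per the submitters' processing notes. The authors' deposited value table holds log2 values of 22887 probes, with 9 of the 10 genes; it was used as an alternative only. Its column medians lie near 0, and its differences match the scanner values, so scale and direction are known, while the sources used here do not give the filter on probes.

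Outlier spots (100 to 212 per array) were dropped, repeated spots averaged, log2 taken and each array's 75th percentile over 43020 spots subtracted. A probe was kept (24359 were) if 1 or more groups had it well above background on each of their 3 arrays, and the brightest stood for its gene. Symbols came from a RefSeq gene table. The tests used limma 3.58.1 under R 4.3.3 and were checked on simulated data. The fit had 8 residual and 2.22 prior degrees of freedom. P-values rest on a spread pooled over 4 groups, and the number of arrays limits precision. The median SD over genes was 0.084 in KO late, 0.160 in WT late, 0.141 in KO early and 0.214 in WT early arrays. The pooled fit treats these spreads as equal. The files hold no mean spot signal, so normexp (offset 50) used the median signal, with spots flagged as outliers in spot or background left out.

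Each slide held 1 replicate number of every group. Deviations from the group mean correlated between late and early arrays of the same number at 0.28, 0.24 and 0.14 in WT cells, so there the numbers pair the arrays; in the other comparisons at least 1 correlation was below 0.1. The 10 genes and the lists were chosen with earlier results of these data known. Related genes were named when called, at most the 4 largest in each direction per comparison. Counts of related genes and markers under other settings, and their fits without single arrays, were added after the data were seen. Liver samples were not analysed here.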

Additional observations from a re-analysis of the deposited data

How the results depend on the processing

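Of the 50 log2 differences of the 10 genes, 0 reversed while called. The direction of every called difference held under all alternatives run, which were normexp, quantile normalization, no filter on dim probes, the mean of a gene's probes, the replicate block, group-wise array weights, the authors' value table, the fit without the KO late arrays that carry Xist, the fit of only the groups compared, and leaving out each array. The deposited table has no Thbs4 row matched here, so that gene could not be fitted with it, and the passage response was not refitted on a pair of groups. Normexp and quantile normalization moved the median of all genes by at most 0.056 log2 units. Below, without the Xist arrays means without KO late replicates 1 and 2, while the WT arrays that carry Xist were kept.

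Between KO and WT at late passage the number of genes called was 4, beside 7.83% of all genes. It was 1 under no filter on dim probes (1.92% of all genes), 0 without the Xist arrays (0.00513%), 1 to 2 without single arrays (1.31% to 5.91%), and 3 with only the compared groups (10.9%), where Sparcl1 lost its call (adjusted p = 0.082 in limma). For passage in KO cells it was 3, beside 18.9% of all genes, with 1 under no filter (7.25%), 0 without the Xist arrays (0.846%), 1 to 2 without single arrays (9.12% to 19.9%), and 5 both with group-wise weights (33.7%) and with only the compared groups (27.7%), where Tnc and Tnxb joined. Weights also called 6 genes between genotypes at late passage, adding Thbs2 and Tnxb (15.9% of all genes), and removed Spp1 with passage in WT cells (adjusted p = 0.088 in limma; 2.84% of all genes). Quantile normalization removed Thbs2 with passage in KO cells (adjusted p = 0.061 in limma). The cause of these changes was not tested, except that fewer arrays or more genes tested follow from the settings themselves. With the replicate block 5 genes in place of 4 were called between KO and WT at late passage, adding Thbs2 (adjusted p = 0.031 in limma; 7.23% of all genes), and 4 in place of 3 with passage in WT cells, adding Thbs3 (11.4%); it changed no other call of the 10 genes. Of the related genes at late passage the block called 0 higher and 4 lower in place of 1 and 3, since Tgfbi was not called (adjusted p = 0.067 in limma) and Itga8, named after its values were seen, was (adjusted p = 0.030). The block called 3 bone markers lower with passage in each genotype. Over all genes the early comparison of KO and WT called 7, with 1 to 7 under the alternatives.

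Differences that changed sign were all uncalled. At early passage KO against WT gave for Sparc -0.0053 with normexp, -0.048 with quantile normalization and -0.048 with the mean of probes, and -0.050 to 0.089 without single arrays. The same comparison without single arrays ran from -0.25 to 0.88 for Thbs4, -0.36 to 0.082 for Tnc, -0.14 to 0.32 for Tnxb and -0.035 to 0.36 for Postn. At late passage Spp1 gave 0.0028 with quantile normalization, 0.50 without the Xist arrays and -0.29 to 0.26 without single arrays. With passage in WT cells Tnxb gave -0.027 with normexp and -0.050 to 0.60 without single arrays, and Tnc -0.11 to 0.34. With passage in KO cells Thbs3 gave 0.073 with quantile normalization, 0.0035 with the mean of probes, 0.013 in the authors' table and -0.13 to 0.11 without single arrays. There Thbs4 gave 0.65 and Postn 0.11 without the Xist arrays, Thbs4 -0.48 to 0.33 without single arrays, and Sparc 0.028 with quantile normalization and 0.046 with the mean of probes. The passage response of Thbs1 was 0.0073 in the authors' table, 0.077 without the Xist arrays and -0.25 to 0.13 without single arrays.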
